A study of Caenorhabditis elegans with 24 samples.

Results

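The genes described here are the constitutive chaperones, the small heat shock proteins outside the *hsp-16* family and the J-domain co-chaperones of *C. elegans*. They were chosen by symbol alone, as every gene whose symbol starts with *hsp-*, *dnj-* or *cct-*, or is *daf-21*, without the *hsp-16* genes, *hsp-70*, *hsp-3*, *hsp-4* and *dnj-7*. The array carried probes for 50 such genes among 25616 named genes. They comprise 28 J-domain proteins, 8 subunits of the cytosolic chaperonin, 7 small heat shock proteins, 3 members of the HSP70 and HSP110 classes, 2 members of the HSP90 class, the mitochondrial chaperonin *hsp-60* and the pseudogene *hsp-2*. The gene named *daf-21* in the rule is listed under its current symbol *hsp-90*.

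Whole-worm RNA of synchronized adults early on day 1 of adulthood was hybridised to 24 Agilent arrays, each carrying a pair of RNAs, 1 labelled with Cy3 and the other with Cy5. The strains were wild type (N2) and the mutant *pqm-1(ok485)*, which carries in every cell a mutation of the gene for the zinc finger transcription factor PQM-1. Worms were left untreated or were exposed to 5 mM CoCl2, a chemical that mimics hypoxia, for 6 h or 20 h. At each time 4 comparisons were made on 3 arrays each. A pair of them set CoCl2-treated over untreated worms, once within wild type and once within the mutant. The other pair set *pqm-1(ok485)* over wild type, once without treatment and once with both strains in CoCl2. Every value below is a log2 ratio of the first condition over the second, so that 1 is a doubling. It is the mean of 3 arrays with its standard error (SE) from limma, and a gene is called differentially expressed where its p, adjusted by Benjamini-Hochberg over every gene tested, was below 0.01. The labels number the arrays of a comparison as replicates. The SE and p-values rest on the spread between such replicates, pooled over the 4 comparisons of a time. Where times are compared, it is pooled over both times. They therefore do not measure the spread of the 3 arrays of a comparison alone. The 4 comparisons of a time share conditions with each other and are not independent.

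Chaperones bind unfolded proteins and help them reach or regain their native form. HSP70 proteins do so in cycles of ATP hydrolysis that J-domain proteins start and HSP110 proteins reset, HSP90 acts late on selected clients such as kinases and receptors, and the ring-shaped chaperonins enclose a substrate (the cytosolic CCT complex serves actin and tubulin, HSP-60 serves the mitochondrial matrix). Small heat shock proteins hold unfolding proteins without ATP. The inducible *hsp-16* and *hsp-70* genes are the classical targets of the heat shock factor HSF-1, whereas most of the genes described here are expressed in unstressed animals.

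On each array 69% to 92.1% of the probes stood above background in at least 1 channel, 0 to 996 probes were saturated, and the arrays of a comparison correlated across genes with r of 0.674 to 0.961. The dyes are given by the source names and by the strain and treatment fields, which oppose each other on 11 arrays. Directions here follow the latter, as the authors' ratio table does on 24 of 24 arrays. The 1 probe for *pqm-1*, whose place relative to the *ok485* lesion is not given in the sources used here, was lower in untreated mutants (log2 ratio -2.27, SE 0.12, at 6 h and -1.46, SE 0.16, at 20 h) but not in CoCl2-treated mutants (-0.038 and 0.19, not called). Major sperm protein (*msp*) genes, markers of sperm, were higher in the mutant in 27 of 27 cases at 6 h, with ratios of 1.5 to 3.65 in untreated and 1.71 to 3.48 in CoCl2-treated worms. They also rose with CoCl2 at 20 h, in 22 of 26 cases in wild type and 26 of 26 in the mutant, and in 0 of 27 cases at 6 h in either strain. In whole worms, fewer cells of a type and less RNA per cell cannot be told apart.

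Of the 50 genes, 49 could be tested at 6 h and 47 at 20 h. The gene not tested at either time was *hsp-110*, the nucleotide exchange factor of the HSP70 class, which gave a value on 7 of 12 arrays at 6 h and 10 of 12 at 20 h. In wild type exposed to CoCl2 its arrays read 0.56, 0.18 and -0.17 at 6 h and -0.33, -0.42 and 0.13 at 20 h. In the mutant 2 arrays read -0.13 and 0.58 at 6 h, and the 3 arrays read 0.15, -0.42 and -0.07 at 20 h. The arrays of each comparison lay on both sides of 0, and without a minimum number of arrays no comparison of *hsp-110* was called by limma (adjusted p of 0.0527 to 0.875). At 20 h *dnj-3* and *dnj-8* were also not tested, with ratios between -0.17 and 0.029 when the minimum was dropped.

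CoCl2 moved few of these genes. In wild type after 6 h, 1 of 49 members was called as higher and 0 as lower, where 4.25% of all genes were called (2.57% higher, 1.68% lower). In *pqm-1(ok485)* 2 were higher and 2 lower of 49 (background 10.9%, with 6.03% higher and 4.83% lower). After 20 h, 3 of 47 were higher and 3 lower in wild type (background 15.9%, with 8.99% higher and 6.93% lower), and 4 were higher and 5 lower in the mutant (background 35.2%, with 22.8% higher and 12.4% lower). The share of members called was thus 2.04%, 8.16%, 12.8% and 19.1%, below that of all genes each time. The members' median log2 ratio was -0.016 in wild type and -0.015 in the mutant at 6 h, and -0.041 and -0.064 at 20 h, against -0.00036, -0.0060, -0.0091 and -0.0089 for all genes tested. For 93.9%, 87.8%, 76.6% and 66% of the members in these 4 comparisons, the 95% interval of the ratio lay within 0.5 of 0, against 89.8%, 81%, 72.9% and 61.5% of all genes. Each member called as higher in a CoCl2 comparison was a small heat shock protein, and each called as lower was *hsp-60* or a J-domain gene. As a point of reference, 8 of the 10 heat shock genes left out by the rule were tested. The 4 *hsp-16* genes among them and *hsp-70* rose in all 4 comparisons, with ratios from 3.08 (*hsp-70* in the mutant at 6 h) to 5.85 (*hsp-16.48* in wild type at 20 h), whereas *hsp-3*, *hsp-4* and *dnj-7* lay between -0.36 and 0.36 and were not called, except that *hsp-4* rose in the mutant at 20 h (0.73, adjusted p = 0.0028).

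**Figure D1:**
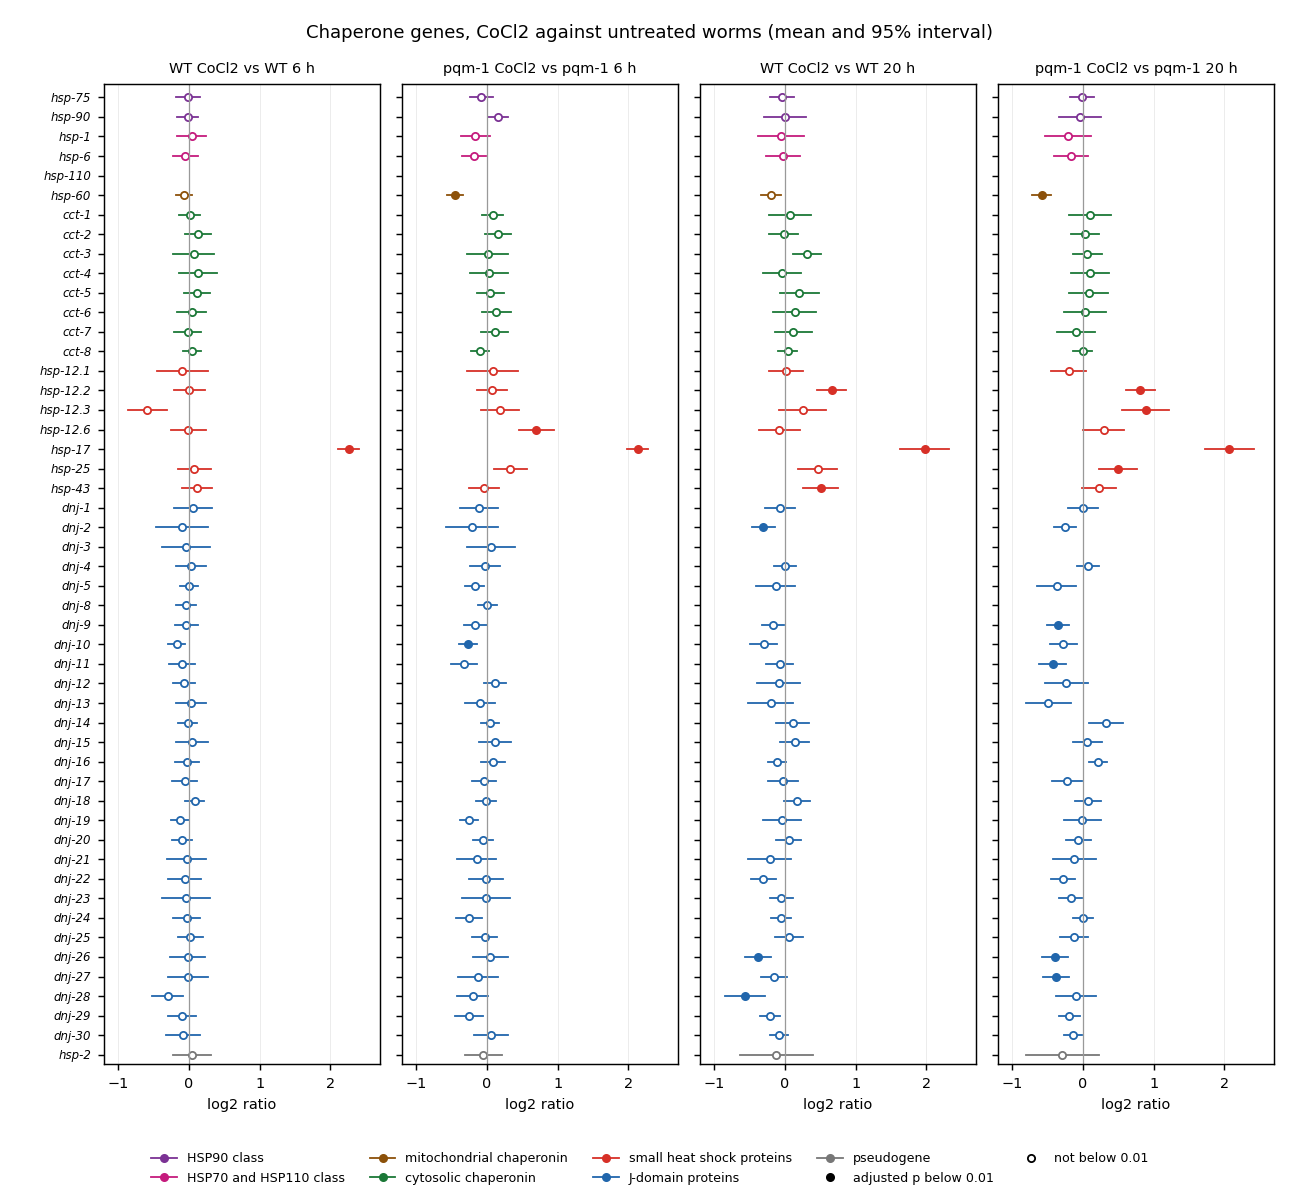
Mean log2 ratio of CoCl2-treated over untreated worms for each member, grouped by role, in wild type and *pqm-1(ok485)* at 6 h and 20 h; bars are 95% intervals from limma and filled points are called at an adjusted p below 0.01. *hsp-17* stands near 2 in all 4 panels, while the cytosolic chaperonin subunits lie between -0.097 and 0.31.

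The one large response was that of *hsp-17*, a small heat shock protein of the alpha-crystallin family that 1 probe measured. In wild type its 3 arrays read 2.44, 2.12 and 2.22 at 6 h and 1.80, 2.57 and 1.55 at 20 h. In *pqm-1(ok485)* they read 2.18, 2.00 and 2.21 at 6 h and 1.89, 2.34 and 1.99 at 20 h. The strains and the times overlapped, and no array lay below 1.55. The corresponding means were 2.26 (SE 0.068, adjusted p = 1.27e-09 from limma, 4.79-fold) and 1.97 (SE 0.16, adjusted p = 2.56e-06, 3.93-fold) in wild type, and 2.13 (SE 0.068, adjusted p = 1.59e-09, 4.37-fold) and 2.07 (SE 0.16, adjusted p = 9.76e-07) in the mutant. The channel signals, as normalized log2 intensities over 6 channels per condition, ranged from 10.5 to 11.12 in untreated wild type at 6 h and from 12.69 to 13.24 with CoCl2, and thus did not overlap.

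No difference in the *hsp-17* response was detected between strains or times. At 6 h the strain ratio with CoCl2 minus the untreated strain ratio was -0.087 (95% interval -0.30 to 0.12, adjusted p = 0.748 from limma). The mutant response minus the wild-type response was -0.13 at 6 h (adjusted p = 0.65 from limma) and 0.097 at 20 h (interval -0.40 to 0.59, adjusted p = 0.839). The response at 20 h minus that at 6 h was -0.29 in wild type (interval -0.67 to 0.095) and -0.057 in the mutant. What did differ between the strains at 6 h was the level. Untreated mutants read 0.65, 0.54 and 0.70 above untreated wild type (mean 0.63, SE 0.068, adjusted p = 2.61e-05), and CoCl2-treated mutants read 0.51, 0.62 and 0.50 above treated wild type (mean 0.54, SE 0.068, adjusted p = 6.84e-05). The median signal at 6 h was accordingly ordered from untreated wild type (10.68) over the untreated mutant (11.54) and treated wild type (13.04) to the treated mutant (13.74). At 20 h the arrays of the strain comparisons fell on both sides of 0, with means of 0.11 (untreated) and 0.056 (with CoCl2), neither called. The *hsp-17* strain calls at 6 h were lost when arrays were centred on their median in place of loess (0.57 and 0.53, adjusted p = 0.193 and 0.169), and that with CoCl2 also with the scanner's own log ratio (0.48, adjusted p = 0.0247).

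**Figure D2:**
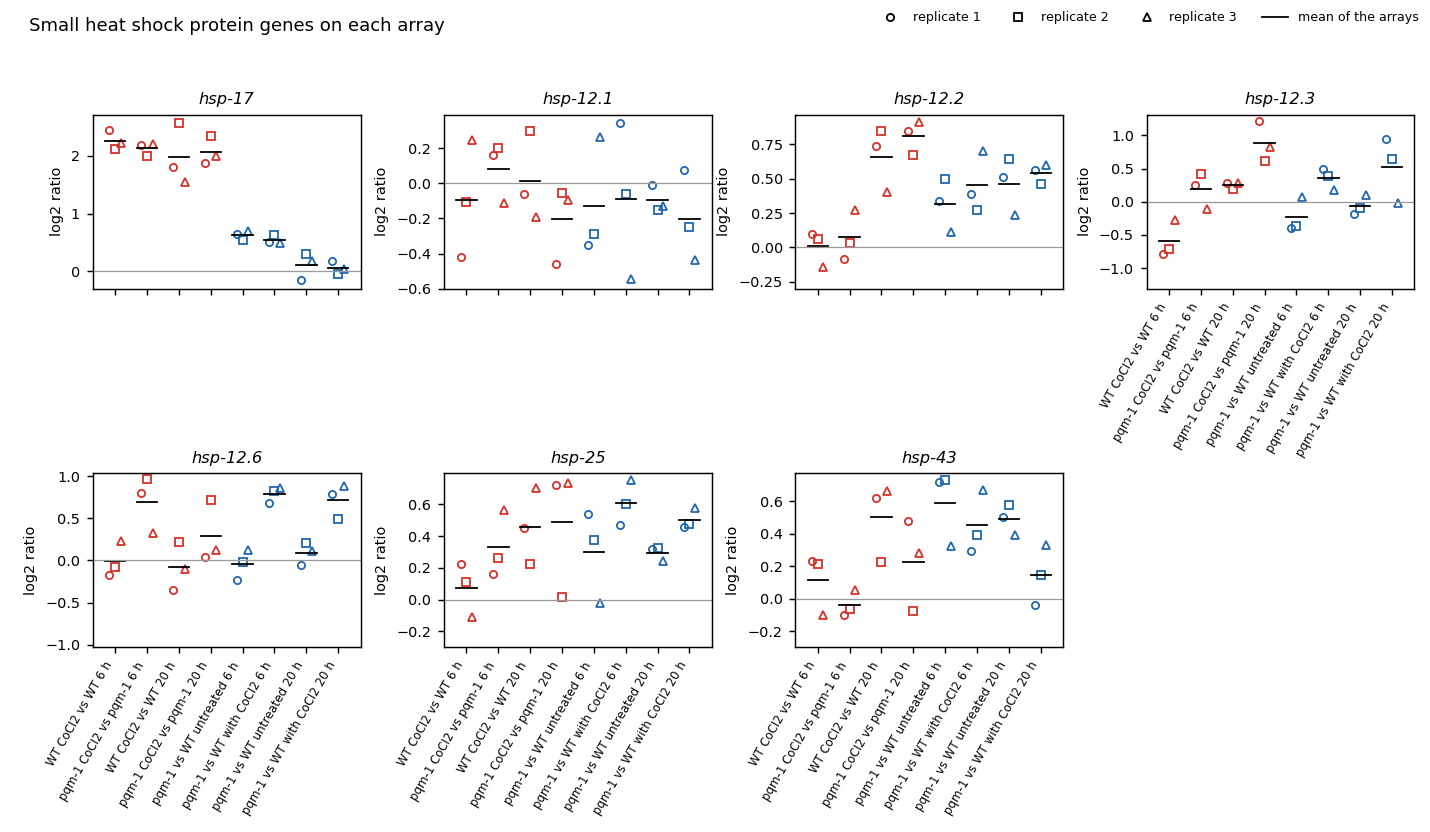
Log2 ratio on each of the 3 arrays for the 7 small heat shock proteins in the 8 comparisons; red points are CoCl2 against untreated, blue points are *pqm-1(ok485)* against wild type, and the bar is the mean. The *hsp-17* arrays of the CoCl2 comparisons lie between 1.55 and 2.57, and the largest mean of any other small heat shock protein there is the 0.89 of *hsp-12.3* in the mutant at 20 h.

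The HSP12 genes followed different courses. They encode very short small heat shock proteins, and those tested in vitro form small assemblies without chaperone activity. At 20 h *hsp-12.2* rose in both strains. Its arrays read 0.74, 0.84 and 0.40 in wild type and 0.85, 0.67 and 0.91 in the mutant, all above the highest of the 6 h arrays (0.27). The means were 0.66 (SE 0.093, adjusted p = 0.000248 from limma) and 0.81 (SE 0.093, adjusted p = 2.00e-05), and its pair of probes gave 0.37 and 0.96 in wild type and 0.65 and 0.97 in the mutant. At 6 h the means were 0.0071 in wild type and 0.072 in the mutant. With median centring neither *hsp-12.2* call at 20 h was kept (0.33, adjusted p = 0.209, in wild type and 0.61, adjusted p = 0.0218, in the mutant), and the wild-type call was also lost with the slide as a fixed block (0.57, adjusted p = 0.0443) or with only its own 3 arrays in the fit (adjusted p = 0.0195).

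For *hsp-12.3*, the wild-type arrays at 6 h read -0.78, -0.71 and -0.27, all below 0. This mean of -0.59 (SE 0.12) was the lowest of any member in that comparison and missed the threshold (adjusted p = 0.0117), which it passed without replicate 3 (-0.75, adjusted p = 0.00698). In the mutant at 20 h the arrays read 1.21, 0.62 and 0.83, and *hsp-12.3* was upregulated (mean 0.89, SE 0.15, adjusted p = 0.000412, 6 of 6 probes between 0.78 and 1.09). The wild-type mean at 20 h was 0.25 (adjusted p = 0.262) and the mutant mean at 6 h was 0.19 (adjusted p = 0.380). Its neighbour in the genome, *hsp-12.6*, a target of DAF-16 and HSF-1 in insulin signaling mutants, rose in the mutant at 6 h. The arrays read 0.80, 0.97 and 0.33 (mean 0.70, SE 0.11, adjusted p = 0.000892), against -0.18, -0.076 and 0.23 in wild type (mean -0.0088), so that the strains did not overlap. The 6 *hsp-12.6* probes lay between 0.64 and 0.77 in the mutant. The call of *hsp-12.6* was lost without replicate 1 (0.65, adjusted p = 0.0138) or replicate 2 (0.56, adjusted p = 0.0151), with median centring (0.73, adjusted p = 0.0125) and with only its own arrays in the fit (adjusted p = 0.0356). At 20 h *hsp-12.6* was not called in either strain (-0.078 and 0.29), and *hsp-12.1* was not called in any comparison (-0.094 to 0.083 at 6 h, 0.015 and -0.20 at 20 h, for CoCl2).

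Among the longer small heat shock proteins, *hsp-25*, which locates to dense bodies of body wall muscle, was upregulated by CoCl2 in the mutant at 20 h. Its arrays read 0.72, 0.019 and 0.73 (mean 0.49, SE 0.12, adjusted p = 0.00599 from limma), so replicate 2 stood near 0. In wild type at 20 h the arrays read 0.45, 0.23 and 0.71 (mean 0.46, adjusted p = 0.0164), not called and overlapping with the mutant. For *hsp-43* the wild-type response at 20 h was 0.62, 0.23 and 0.67 (mean 0.50, SE 0.11, adjusted p = 0.00539), and the mutant response was 0.48, -0.074 and 0.28 (mean 0.23, adjusted p = 0.113). The 13 *hsp-43* probes spanned 0.030 to 0.84 in wild type, all above 0. Without replicate 1 or 3, neither *hsp-25* in the mutant (0.38 and 0.37, adjusted p = 0.0669 and 0.0588) nor *hsp-43* in wild type (0.45 and 0.42, adjusted p = 0.0498 and 0.0392) passed the threshold, and median centring took them to 0.094 and 0.11 (adjusted p = 0.782 and 0.693).

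At 20 h, markers of other tissues moved with CoCl2 as well. The *msp* genes had a median ratio of 1.86 in wild type and 2.74 in the mutant, and the 5 intestinal markers tested, vitellogenins among them, a median of -2.03 (1 higher, 4 lower) and -2.06 (2 higher, 3 lower). In the mutant 8 of 10 oocyte and eggshell genes were lower (median -0.53, with 12.4% of all genes lower) and 4 of 4 molting genes higher (median 0.71, with 22.8% of all genes higher). In wild type 2 of 10 oocyte and eggshell genes were higher and 0 lower, and 0 of 4 molting genes were called. At 6 h 0 of 27 *msp* genes were called in either strain, while of the 5 intestinal markers 1 was lower in wild type (median -0.15) and 2 were higher and 3 lower in the mutant (median -0.89, from -1.06 for *vit-5* to 0.54 for *ges-1*). Their part in the chaperone values was not tested.

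The abundant general chaperones did not respond detectably. For *hsp-90*, the cytosolic HSP90, the wild-type arrays read 0.13, -0.19 and 0.0057 at 6 h and 0.0044, -0.28 and 0.29 at 20 h. The mutant arrays read 0.12, 0.18 and 0.18 at 6 h and 0.016, -0.30 and 0.16 at 20 h. Except for the mutant at 6 h the arrays straddled 0. The means were -0.016 (95% interval -0.16 to 0.13) and 0.0044 (-0.29 to 0.30) in wild type, and 0.16 (0.012 to 0.30, adjusted p = 0.144) and -0.040 (-0.34 to 0.26) in the mutant. Probes of *hsp-90* were saturated on up to 13 arrays, which limits what a ratio can show there. Its mitochondrial relative *hsp-75* (TRAP1) had means of -0.011 and -0.041 in wild type and -0.078 and -0.018 in the mutant.

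For *hsp-1*, the constitutive cytosolic HSC70, the wild-type arrays read 0.17, 0.20 and -0.25 at 6 h and -0.018, -0.39 and 0.23 at 20 h. In the mutant they read -0.27, -0.25 and 0.032 at 6 h and 0.23, -0.55 and -0.31 at 20 h. No comparison had all arrays on the same side of 0. The means were 0.037 (95% interval -0.17 to 0.24) and -0.058 (-0.38 to 0.26) in wild type and -0.16 (-0.37 to 0.039) and -0.21 (-0.53 to 0.11) in the mutant, and none was called (lowest adjusted p = 0.265 from limma). At 20 h probes of *hsp-1* were saturated in up to 3 of 6 signals of treated mutants, which limits the ratios there. The mitochondrial HSP70 *hsp-6* read 0.076, -0.030 and -0.20 in wild type at 6 h and -0.30, 0.30 and -0.074 at 20 h, with means of -0.050 (SE 0.080) and -0.025 (SE 0.11). In the mutant its arrays were -0.14, -0.26 and -0.15 at 6 h (mean -0.18, SE 0.080, adjusted p = 0.158) and 0.040, -0.28 and -0.26 at 20 h (mean -0.17, SE 0.11, adjusted p = 0.235). Only the mutant at 6 h had the 3 *hsp-6* arrays on the same side of 0. The pseudogene *hsp-2*, which resembles an HSP70 gene, was not called in any comparison (CoCl2 means of 0.047 and -0.12 in wild type and -0.049 and -0.29 in the mutant).

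The exception was *hsp-60*, the mitochondrial chaperonin, which fell in *pqm-1(ok485)* exposed to CoCl2. At 6 h its mutant arrays read -0.45, -0.46 and -0.45, against 0.017, -0.12 and -0.12 in wild type. At 20 h the mutant arrays read -0.51, -0.72 and -0.53, against -0.10, -0.30 and -0.18 in wild type. The strains did not overlap at either time. The mutant means were -0.45 (SE 0.053, adjusted p = 6.84e-05 from limma) and -0.59 (SE 0.062, adjusted p = 1.11e-05), and the wild-type means -0.072 (SE 0.053, adjusted p = 0.775) and -0.20 (SE 0.062, adjusted p = 0.0364). All 10 *hsp-60* probes were below 0 in the mutant, between -0.63 and -0.35 at 6 h and between -0.69 and -0.43 at 20 h. The median channel signal at 6 h was 9.58 in untreated and 9.46 in treated wild type, and 9.70 in untreated and 9.22 in treated mutants. Neither mutant call was lost when any 1 of its arrays was left out, but that at 6 h was lost with median centring (-0.61, adjusted p = 0.0645) and with only its own arrays in the fit (adjusted p = 0.0109).

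**Figure D3:**
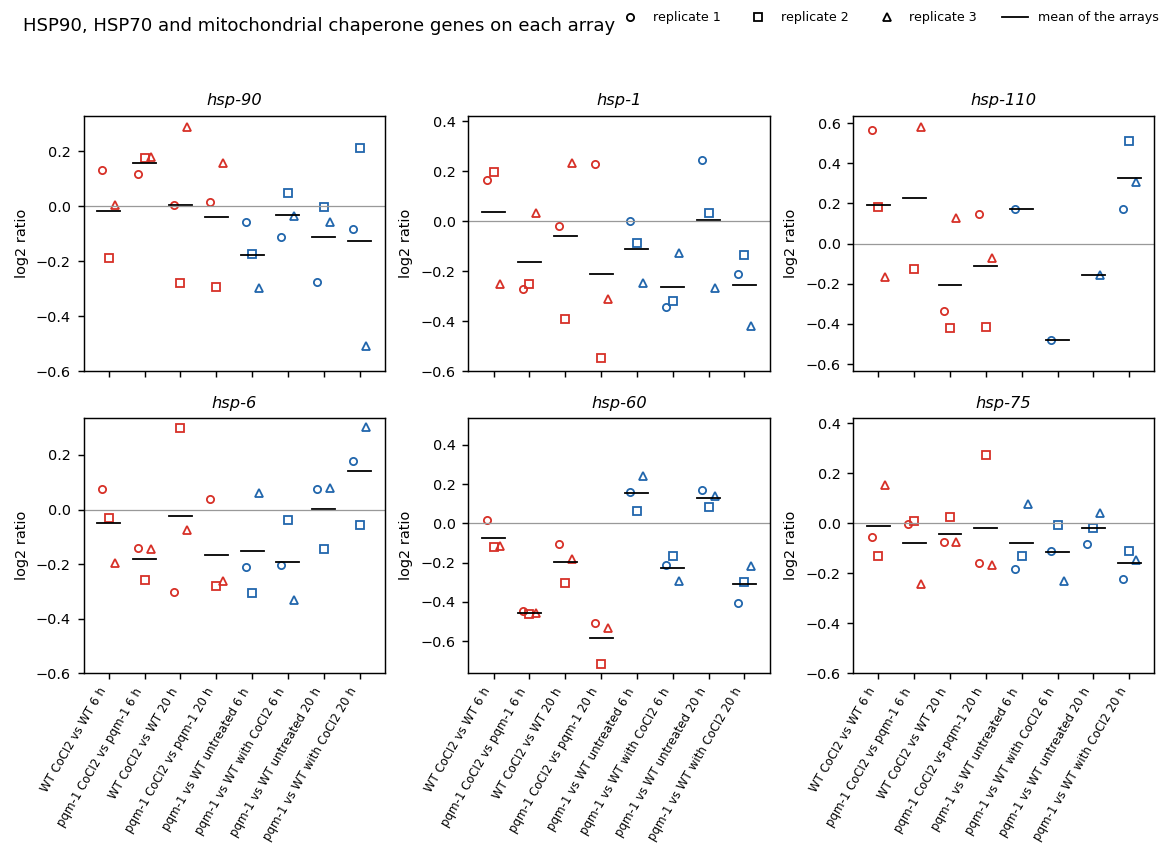
Log2 ratio on each of the 3 arrays for *hsp-90*, *hsp-75*, *hsp-1*, *hsp-110*, *hsp-6* and *hsp-60* in the 8 comparisons; red points are CoCl2 against untreated, blue points are *pqm-1(ok485)* against wild type, and the bar is the mean. The *hsp-60* arrays of the mutant response lie between -0.72 and -0.45, whereas those of *hsp-90*, *hsp-1* and *hsp-6* lie around 0.

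The 8 subunits of the cytosolic chaperonin, *cct-1* to *cct-8*, stayed close to each other under CoCl2. limma called 0 of the 8 in either strain at either time (background 4.25% in wild type and 10.9% in the mutant at 6 h, 15.9% and 35.2% at 20 h). Their ratios ran from -0.015 (*cct-7*) to 0.13 (*cct-4*) in wild type and from -0.095 (*cct-8*) to 0.16 (*cct-2*) in the mutant at 6 h. At 20 h they ran from -0.037 (*cct-4*) to 0.31 (*cct-3*, adjusted p = 0.0252) in wild type and from -0.097 (*cct-7*) to 0.098 (*cct-1*) in the mutant. An unadjusted p below 0.05 was seen for 1 subunit in wild type at 20 h and 0 in the other 3 comparisons. The medians were 0.057 and 0.063 at 6 h and 0.095 and 0.048 at 20 h.

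All calls of J-domain genes under CoCl2 were lower ones. In wild type at 6 h limma called 0 of 28 (2 with an unadjusted p below 0.05, background 4.25%), with ratios from -0.30 (*dnj-28*) to 0.080 (*dnj-18*). In the mutant at 6 h it called *dnj-10*, the homologue of the mitochondrial DNAJA3 (-0.20, -0.19 and -0.40, mean -0.26, SE 0.057, adjusted p = 0.00646). This was 1 of 28 (3.57%), against 4.83% of all genes lower. At 20 h in wild type, 3 of 26 were lower (11.5%, against 6.93% of all genes). These were *dnj-28* (-0.99, -0.36 and -0.36, mean -0.57, SE 0.13, adjusted p = 0.00649), *dnj-26* (-0.28, -0.63 and -0.25, mean -0.39, SE 0.084, adjusted p = 0.00492) and *dnj-2* (-0.29, -0.26 and -0.36, mean -0.30, SE 0.072, adjusted p = 0.00852). All arrays of these genes were below 0, with 1 array of *dnj-28* and 1 of *dnj-26* well below the others.

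In the mutant at 20 h, 4 of 26 J-domain genes were lower (15.4%, against 12.4% of all genes) and the median of the 26 was -0.16, against -0.084 in wild type. The lowest mean of these was that of *dnj-11*, the homologue of the ribosome-associated MIDA1/ZRF proteins, which read -0.49, -0.26 and -0.53 (mean -0.43, SE 0.087, adjusted p = 0.0016 from limma). The ER thioredoxin-like J-domain gene *dnj-27* read -0.46, -0.22 and -0.45 (mean -0.38, SE 0.084, adjusted p = 0.00286). The arrays of *dnj-9* agreed closely at -0.35, -0.36 and -0.35 (mean -0.35, SE 0.071, adjusted p = 0.00149), and *dnj-26* read -0.52, -0.25 and -0.43 (mean -0.40, SE 0.084, adjusted p = 0.00192). Replicate 2 was the nearest to 0 for *dnj-11*, *dnj-27* and *dnj-26*. Larger than these in size, but not called, was the ratio of the cytosolic class B co-chaperone *dnj-13* (-0.49, adjusted p = 0.0156), and the highest was that of *dnj-14*, the cysteine string protein (0.32, adjusted p = 0.0276). The class A co-chaperones *dnj-12* and *dnj-19* read -0.23 and -0.0071 in that comparison.

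Each of these J-domain calls was lost when some single array was left out. In the mutant at 6 h *dnj-10* was lost without replicate 1 (-0.30, adjusted p = 0.0232), 2 (-0.30, adjusted p = 0.0184) or 3 (-0.20, adjusted p = 0.0533). In wild type at 20 h *dnj-2* was lost without any 1 array (-0.33 to -0.27, adjusted p of 0.0284 to 0.0458), and *dnj-28* and *dnj-26* were lost without replicate 1 (-0.36 and -0.44, adjusted p = 0.0693 and 0.0135) or replicate 2 (-0.67 with an adjusted p just above 0.01, and -0.27 with an adjusted p of 0.0545). In the mutant at 20 h replicate 1 or 3 decided *dnj-11* (-0.39 and -0.38, adjusted p = 0.0164 and 0.0159 without them), *dnj-26* (-0.34 and -0.38, adjusted p = 0.0234 and 0.0138) and *dnj-27* (-0.34 and -0.34, adjusted p = 0.0280 and 0.0234), and replicate 1 decided *dnj-9* (-0.35, adjusted p = 0.0107). Median centring moved *dnj-10* to -0.50 (adjusted p = 0.223), *dnj-2* to -0.84 (0.0122), *dnj-28* to -0.87 (0.0168) and *dnj-27* to -0.66 (0.0286), none of them called.

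The strain comparisons ask how the same genes differ between *pqm-1(ok485)* and wild type. In untreated worms at 6 h, 2 of 49 members were higher and 1 lower in the mutant (background 13.8%, with 10.5% higher and 3.22% lower). Besides *hsp-17*, *hsp-43* was higher in the mutant (0.72, 0.73 and 0.33, mean 0.59, SE 0.096, adjusted p = 0.000705 from limma) and *dnj-28* was lower (-0.43, -0.48 and -0.72, mean -0.54, SE 0.10, adjusted p = 0.00171). All arrays of these genes lay on the same side of 0. The call of *hsp-43* was lost without replicate 1 (0.53, adjusted p = 0.0120) or 2 (0.52, adjusted p = 0.0119), and that of *dnj-28* without replicate 2 (-0.57, adjusted p = 0.0105) or 3 (-0.46, adjusted p = 0.0169). The members' median was -0.062, against -0.0059 for all genes. At 20 h 1 of 47 was higher and 0 lower (background 4.33%, with 3.07% higher and 1.26% lower), namely *hsp-12.2* (0.51, 0.65 and 0.23, mean 0.46, SE 0.093, adjusted p = 0.00866), and it was lost without replicate 1 (0.44, adjusted p = 0.0778) or 2 (0.37, adjusted p = 0.122). The highest ratio there was that of *hsp-43* (0.51, 0.58 and 0.39, mean 0.49, adjusted p = 0.0167) and the lowest that of *dnj-26* (-0.36, adjusted p = 0.0192), neither called.

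With CoCl2 at 6 h, 8 of 49 members differed between the strains, 5 higher and 3 lower in the mutant (background 19.6%, with 14.2% higher and 5.43% lower). All 5 that were higher belonged to the 7 small heat shock proteins. The *hsp-12.6* arrays read 0.69, 0.82 and 0.86 (mean 0.79, SE 0.11, adjusted p = 0.000202 from limma) and the *hsp-25* arrays 0.47, 0.60 and 0.75 (mean 0.61, SE 0.11, adjusted p = 0.000991). Somewhat lower were *hsp-12.2* (0.39, 0.27 and 0.70, mean 0.45, SE 0.098, adjusted p = 0.00377) and *hsp-43* (0.29, 0.39 and 0.67, mean 0.45, SE 0.096, adjusted p = 0.00352), and *hsp-17* is given above. No array of these 5 genes was below 0.27. The median of the 7 small heat shock proteins was 0.45, against 0.30 in untreated worms. Of the other 42 members, 3 were lower and 0 higher in the mutant, *dnj-28* (-0.46, -0.81 and -0.52, mean -0.60, SE 0.10, adjusted p = 0.000625), *dnj-5* (mean -0.27, SE 0.060, adjusted p = 0.00480) and *hsp-60* (-0.21, -0.17 and -0.30, mean -0.23, SE 0.053, adjusted p = 0.00681).

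Calls in this comparison other than those of *hsp-12.6* and *hsp-17* were lost when 1 array was left out. Without replicate 3 *hsp-25* (0.54, adjusted p = 0.0115), *hsp-12.2* (0.33, adjusted p = 0.0413) and *hsp-43* (0.34, adjusted p = 0.0384) were lost, *hsp-12.2* also without replicate 1 (0.49, adjusted p = 0.0165), and *hsp-43* and *dnj-28* without replicate 2 (0.48 and -0.49, adjusted p = 0.0180 and 0.0112), while *dnj-5* (adjusted p of 0.0192 to 0.0443) and *hsp-60* (0.0201 to 0.0543) were lost without any 1 array. Median centring left 1 higher call among the members, that of *hsp-12.6*, and 0 lower calls. The scanner's log ratio and the authors' table each left 2 higher and 2 lower. Body wall muscle markers were higher in the mutant as well, 3 of 4 in untreated worms (median 0.62) and 3 of 4 with CoCl2 (median 0.71), as were the *msp* genes, and 5 of 10 oocyte and eggshell genes were lower with CoCl2 (median -0.47). Of the 5 intestinal markers 3 were lower in untreated worms (median -0.73), and 2 were higher and 3 lower with CoCl2 (median -1.21, from -1.81 to 0.58). Their part in the chaperone values was not tested.

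**Figure D4:**
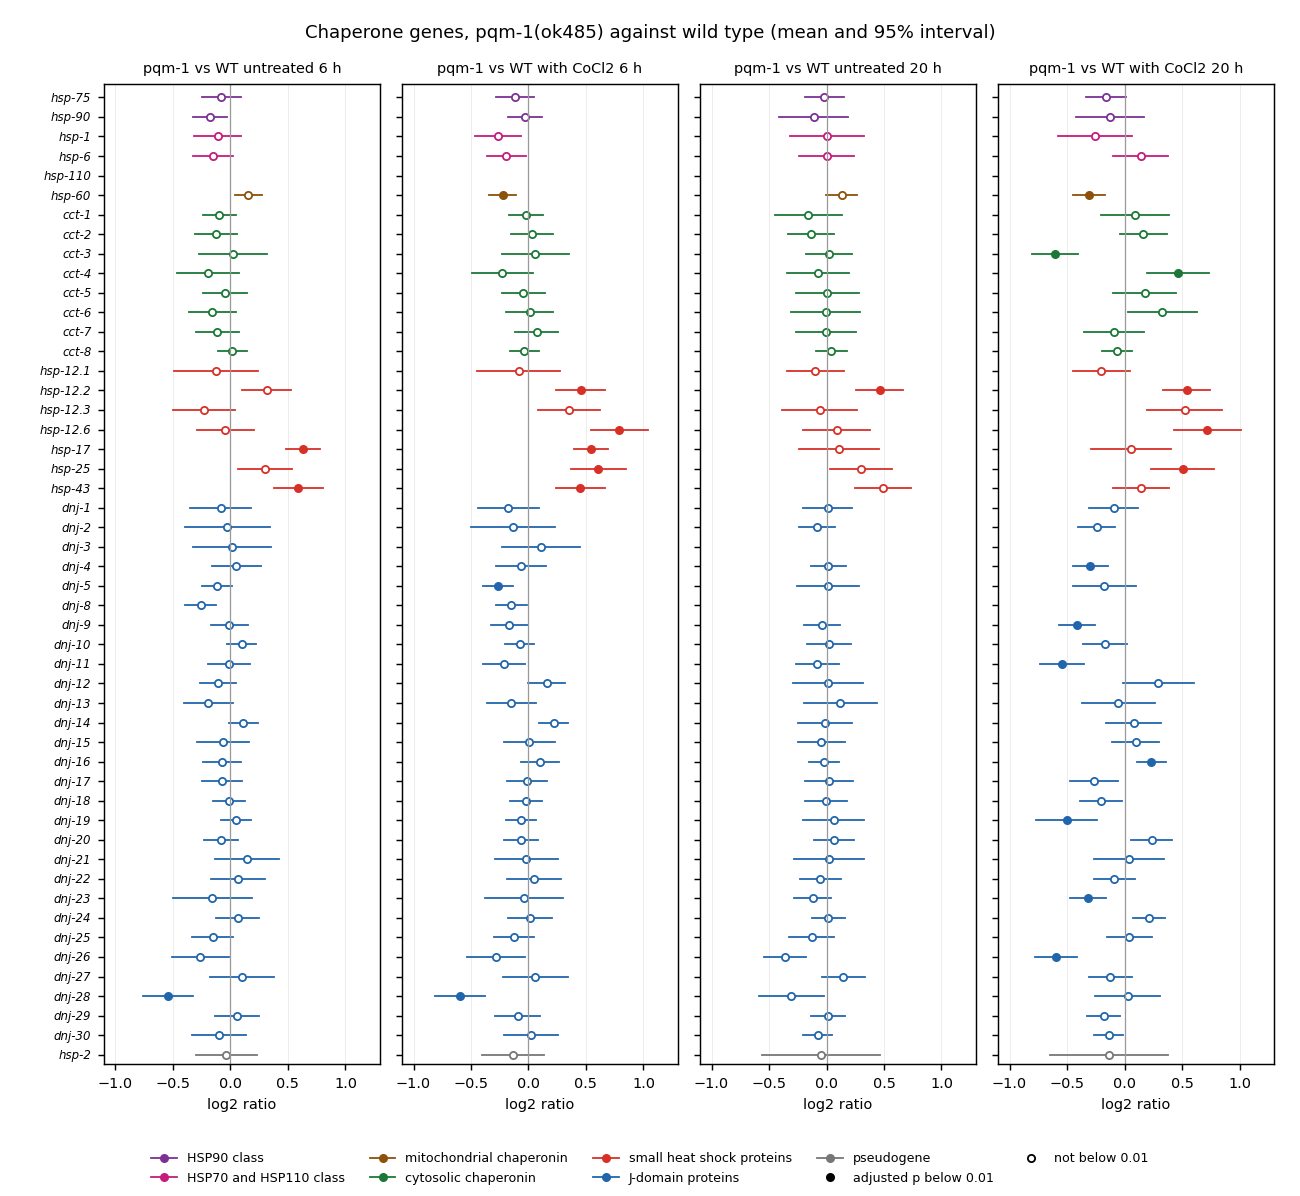
Mean log2 ratio of *pqm-1(ok485)* over wild type for each member, grouped by role, in untreated and CoCl2-treated worms at 6 h and 20 h; bars are 95% intervals from limma and filled points are called at an adjusted p below 0.01. With CoCl2 at 6 h 5 of 7 small heat shock proteins are filled and above 0, and with CoCl2 at 20 h *cct-3* (-0.61) and *cct-4* (0.47) lie apart from the other chaperonin subunits.

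With CoCl2 at 20 h, 13 of 47 members differed between the strains, 5 higher and 8 lower in the mutant (background 37.3%, with 23.7% higher and 13.6% lower). The small heat shock proteins *hsp-12.6* (0.79, 0.50 and 0.88, mean 0.72, SE 0.13, adjusted p = 0.000831 from limma), *hsp-12.2* (0.56, 0.46 and 0.60, mean 0.54, SE 0.093, adjusted p = 0.000477) and *hsp-25* (0.46, 0.48 and 0.58, mean 0.50, SE 0.12, adjusted p = 0.00497) were higher. These 3 had been higher in treated mutants at 6 h too. Among the chaperonin subunits, *cct-4* was higher (0.38, 0.49 and 0.53, mean 0.47, SE 0.12, adjusted p = 0.00771) and *cct-3* was lower (-0.51, -0.59 and -0.71, mean -0.61, SE 0.091, adjusted p = 0.00018, 5 of 5 probes between -0.66 and -0.47). The other 6 subunits were not called. *hsp-60* was again lower (-0.41, -0.30 and -0.22, mean -0.31, SE 0.062, adjusted p = 0.00151).

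Of the 26 J-domain genes, 6 were lower and 1 higher in treated mutants at 20 h (background 13.6% lower and 23.7% higher), with a median of -0.13. *dnj-26* read -0.66, -0.45 and -0.68 (mean -0.60, SE 0.084, adjusted p = 0.000103 from limma), *dnj-11* read -0.59, -0.57 and -0.48 (mean -0.54, SE 0.087, adjusted p = 0.000286), and *dnj-9* read -0.41, -0.39 and -0.44 (mean -0.41, SE 0.071, adjusted p = 0.000484). No array of these genes was above -0.39. *dnj-19* (-0.50), *dnj-23* (-0.32) and *dnj-4* (-0.30) were lower and *dnj-16* (0.23) was higher. The 6 *dnj-19* probes disagreed, from -0.88 to 0.12 with 4 below 0. Leaving out any 1 array lost the calls of *hsp-25* (adjusted p of 0.0228 to 0.0313), *cct-4* (0.0269 to 0.0415), *dnj-19* (0.0152 to 0.0383), *dnj-23* (0.0170 to 0.0255) and *dnj-16* (0.0164 to 0.0391), and leaving out replicate 1 lost *hsp-60* (-0.26, adjusted p = 0.0212) and *dnj-4* (-0.31, adjusted p = 0.0205), as did replicate 2 for *hsp-60* (-0.31, adjusted p = 0.0102) and replicate 3 for *dnj-4* (-0.24, adjusted p = 0.0391). Median centring lost every lower call of this comparison, with *cct-3* at -0.21 (adjusted p = 0.313), *dnj-26* at -0.27 (0.254), *dnj-11* at -0.20 (0.313), *dnj-9* at -0.077 (0.719), *dnj-19* at -0.16 (0.394) and *dnj-23* at -0.052 (0.817), and *hsp-60* (0.053) and *dnj-4* (0.080) above 0.

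These 20 h values can be set beside the rest of the design, because the strain ratio with CoCl2 minus the untreated strain ratio measures the same quantity as the mutant response minus the wild-type response, on other arrays. For *cct-3* the former was -0.63 (SE 0.13) and the latter -0.25 (SE 0.13). For *cct-4* they were 0.54 (SE 0.17) and 0.13 (SE 0.17), and for *dnj-19* -0.56 (SE 0.17) and 0.034 (SE 0.17), so that the arrays of treated mutants against treated wild type carried most of each difference. By contrast, both ways gave like values for *hsp-60* (-0.44 and -0.39, SE 0.088 each), *dnj-11* (-0.47 and -0.36, SE 0.12 each) and *hsp-12.3* (0.58 and 0.64, SE 0.21 each). The 3 arrays of treated mutants against treated wild type at 20 h shared 1 slide, together with 1 array of the mutant response. On these arrays 25 of 26 *msp* genes were higher (median 1.89), 6 of 10 oocyte and eggshell genes were lower (median -0.49) and 4 of 4 molting genes were higher (median 0.80). Of the 5 intestinal markers 1 was higher and 3 were lower (median -1.93, from -2.02 to 1.57), and 3 of 4 body wall muscle markers were higher (median 0.69). Their part in the chaperone values was not tested.

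Whether the response to CoCl2 itself differed between the strains was tested as the difference of a pair of comparisons. At 6 h this was the strain ratio with CoCl2 minus the untreated strain ratio, and 1 of 49 members was called in each direction (background 3.03%, with 1.69% higher and 1.33% lower). The difference was 0.83 for *hsp-12.6* (SE 0.16, 95% interval 0.48 to 1.18, adjusted p = 0.00857 from limma) and -0.38 for *hsp-60*, which fell in the mutant (SE 0.075, interval -0.55 to -0.22, adjusted p = 0.00996). Measured on the other 6 arrays of that time, as mutant response minus wild-type response, the differences were 0.71 (SE 0.16, adjusted p = 0.0308) and -0.38 (SE 0.075, adjusted p = 0.0146), of similar size and not called. Over all 12 arrays, in a model with 1 term each for strain, CoCl2 and their interaction, they were 0.77 (adjusted p = 0.000367) and -0.38 (adjusted p = 0.000217), and *hsp-12.3* was called as well (0.68, adjusted p = 0.00204). That model takes the 12 arrays as separate, although 11 of 12 same-numbered pairs that share a condition had r over 0.1. Whether such pairs carried the same RNA was not tested. If they did, the other 6 arrays are no separate measurement and the p-values of the model are too small. The untreated and the treated strain arrays lay on separate slides, and so did the arrays of the wild-type and the mutant response at 6 h. A slide term was fitted for a shift of red over green, as each of these slides held both dye directions. With the slide as a fixed block the differences were 0.80 for *hsp-12.6* (adjusted p = 0.000679 from limma) and -0.42 for *hsp-60* (adjusted p = 0.00401), both called. Both were also called with the slide as a random block (adjusted p = 0.000333 and 0.000525). Other differences between slides cannot be told apart from those between comparisons within either pair. Leaving out 1 array lost *hsp-60* in 6 of 6 cases (adjusted p of 0.0157 to 0.0461) and *hsp-12.6* in 5 of 6 (adjusted p of 0.0205 to 0.0487), the exception being replicate 3 of the untreated strain comparison. With the replicate number as a block neither was called (adjusted p = 0.0226 for *hsp-12.6* and 0.0304 for *hsp-60* from limma). Over 24 alternatives, left-out arrays included, the *hsp-12.6* call was kept in 12 and the *hsp-60* call in 6.

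At 20 h the difference was the mutant response minus the wild-type response, and limma called 0 of 47 members (background 8.87%, with 8.13% higher and 0.737% lower), with an unadjusted p below 0.05 for 5 of them. The highest difference was that of *hsp-12.3* (0.64, SE 0.21, adjusted p = 0.0644), followed by *dnj-28* (0.47, adjusted p = 0.109), and the lowest was that of *hsp-60* (-0.39, SE 0.088, 95% interval -0.58 to -0.20, adjusted p = 0.0102). *hsp-60* passed the threshold without replicate 2 of the wild-type response (-0.44, adjusted p = 0.00794), in the other pair of comparisons (-0.44, adjusted p = 0.00394) and in the interaction model (-0.41, adjusted p = 0.000185). Over 24 alternatives, left-out arrays included, it was called in 7 and not called in 17. The latter included the slide as a fixed block (-0.42, adjusted p = 0.0276 from limma) and the replicate block (-0.39, adjusted p = 0.01135). The interaction model called 5 members in all, *hsp-60*, *hsp-12.3* (0.61, adjusted p = 0.00519), *dnj-11* (-0.41, adjusted p = 0.00231), *dnj-16* (0.29, adjusted p = 0.00159) and *cct-3* (-0.44, adjusted p = 0.00501). This model, too, takes its arrays as separate. On the 1 slide that held arrays of both responses, the *hsp-60* difference was -0.31 and that of *hsp-12.3* was 0.73.

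The times were compared in a fit of all 24 arrays. In wild type the CoCl2 ratio of 2 of 47 members was higher at 20 h than at 6 h and that of 0 lower (background 6.04%, with 3.32% higher and 2.72% lower), namely *hsp-12.2* by 0.65 (SE 0.14, adjusted p = 0.00343 from limma) and *hsp-12.3* by 0.84 (SE 0.21, adjusted p = 0.00998), the latter going from -0.59 at 6 h to 0.25 at 20 h, neither called. In the mutant the ratio of 1 of 47 was higher at 20 h and that of 0 lower (background 16.9%, with 14% higher and 2.82% lower), namely *hsp-12.2* by 0.74 (SE 0.14, adjusted p = 0.000424), followed by *hsp-12.3* with 0.70 (adjusted p = 0.0155, not called). The wild-type calls were lost in 4 of 6 cases for *hsp-12.2* (adjusted p of 0.0103 to 0.0278) and 5 of 6 for *hsp-12.3* (0.0227 to 0.0601) when 1 array was left out, the *hsp-12.2* call holding without replicate 1 at 6 h or replicate 3 at 20 h and the *hsp-12.3* call without replicate 3 at 6 h. The mutant call of *hsp-12.2* was not lost in any of 6 cases. With median centring the *hsp-12.2* differences were 0.25 (adjusted p = 0.514) in wild type and 0.75 (adjusted p = 0.0567) in the mutant, and that of *hsp-12.3* was 0.76 (adjusted p = 0.154). *dnj-26* in the mutant read -0.45 (adjusted p = 0.0303) and was called without replicate 3 at 6 h (-0.64, adjusted p = 0.00156). Within the 1 slide that held wild-type arrays of both times, the differences were 0.73 for *hsp-12.2* and 0.87 for *hsp-12.3*.

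Genes of the same pathways outside the rule were described in the same way. Of 13 cofactors of HSP90 and HSP70, limma called 1 in wild type and 0 in the mutant (2 with an unadjusted p below 0.05) for CoCl2 at 6 h, and 3 in each strain at 20 h, with medians of 0.054, 0.070, -0.028 and 0.030. At 6 h the called share was 7.69% in wild type against a background of 4.25%, and 0% in the mutant against 10.9%. At 20 h it was 23.1% in each strain, against 15.9% in wild type and 35.2% in the mutant. The BAG-domain gene *unc-23* rose in wild type at 6 h (0.54, 0.38 and 0.29, mean 0.40, SE 0.063, adjusted p = 0.00136 from limma) and in both strains at 20 h (0.43 and 0.49), and *chn-1*, the CHIP ubiquitin ligase, fell at 20 h in wild type (-0.33, -0.42 and -0.41, mean -0.39, SE 0.050, adjusted p = 0.000129) and in the mutant (-0.26). In wild type the arrays of both genes lay on the same side of 0. Between the strains 1 cofactor was called in each of the untreated comparisons, *unc-23* at 6 h (0.40, higher) and *chn-1* at 20 h (-0.32, lower), and with CoCl2 1 was higher at 6 h, and 2 were higher and 1 lower at 20 h. The called share in untreated worms was 7.69% at each time, against 13.8% of all genes at 6 h and 4.33% at 20 h. With CoCl2 it was 7.69% at 6 h against 19.6%, and 23.1% at 20 h against 37.3%. Without replicate 1 or 2, *unc-23* was lost in wild type at 6 h (0.34 and 0.41, adjusted p = 0.0236 and 0.0132) and 20 h (0.36 and 0.44, adjusted p = 0.0297 and 0.0147), and without replicate 1 *chn-1* was lost in the mutant (-0.24, adjusted p = 0.0127). With median centring the *unc-23* responses were 0.48, 0.16 and 0.30 (adjusted p = 0.298, 0.545 and 0.228), none called.

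Of the 6 prefoldin subunits, which pass actin and tubulin to CCT, limma called 0 for CoCl2 at 6 h (0 in wild type and 1 in the mutant with an unadjusted p below 0.05; medians -0.063 and -0.077) and 1 in each strain at 20 h (medians -0.19 and -0.21). These were *pfd-6* in wild type (-0.34, -0.38 and -0.53, mean -0.42, adjusted p = 0.0017, lost without replicate 3 at -0.36 and 0.0150) and *pfd-4* in the mutant (mean -0.24, adjusted p = 0.00931, lost without replicate 1 at -0.14 and 0.113 or replicate 2 at -0.27 and 0.0232). The called share at 20 h was 16.7% in each strain, against 15.9% of all genes in wild type and 35.2% in the mutant. At 6 h the 0 calls stood against 4.25% and 10.9%. The ratios of all 6 subunits were below 0 in both strains at 20 h, and between the strains 0 of 6 were called (0 with an unadjusted p below 0.05 except 2 with CoCl2 at 20 h). The background between the strains was 13.8% untreated and 19.6% with CoCl2 at 6 h, and 4.33% and 37.3% at 20 h. Of the 4 heat shock regulators, *hsf-1* was lower in the mutant at 20 h (-0.31, -0.38 and -0.50, mean -0.40, SE 0.083, adjusted p = 0.00196, list median -0.26, with 12.4% of all genes lower), a call lost without replicate 2 (-0.41, adjusted p = 0.0104) or 3 (-0.34, adjusted p = 0.0194). The other CoCl2 comparisons of this list had 0 calls and 0 genes with an unadjusted p below 0.05 (medians -0.0066 and -0.12 at 6 h, -0.11 in wild type at 20 h), and 2 of 4 were lower in treated mutants than in treated wild type at 20 h, where 13.6% of all genes were lower. The background of the CoCl2 comparisons without calls was 4.25% in wild type and 10.9% in the mutant at 6 h, and 15.9% in wild type at 20 h.

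Among 8 genes of mitochondrial protein quality control, *dve-1*, a regulator of the mitochondrial unfolded protein response that is needed to induce *hsp-60*, was called in the opposite direction to *hsp-60*. It rose in the mutant at 6 h (0.56, 0.63 and 0.23, mean 0.47, SE 0.080, adjusted p = 0.0012 from limma) and 20 h (0.77, 0.80 and 0.50, mean 0.69, SE 0.092, adjusted p = 6.88e-05), and in wild type at 20 h (0.63, 0.82 and 0.31, mean 0.59, SE 0.092, adjusted p = 0.000551). All of these arrays were above 0, and the call at 6 h was lost without replicate 1 (0.43, adjusted p = 0.0187) or 2 (0.39, adjusted p = 0.0201). The matrix protease *lonp-1* was higher (0.38, adjusted p = 0.00121, lost without replicate 1 at 0.36 and 0.0122) and the peptide exporter *haf-1* lower (-0.36, adjusted p = 0.00417, lost without replicate 1 at -0.30 and 0.0447 or replicate 3 at -0.27 and 0.0448) in the mutant at 20 h. With median centring *lonp-1* stood at 0.027 (adjusted p = 0.952). The medians of the 8 genes were 0.0085 and 0.029 in wild type and -0.0017 and 0.034 in the mutant. At 6 h 0 of 8 were called in wild type (background 4.25%) and 12.5% in the mutant (10.9%). At 20 h 12.5% were called in wild type (15.9%) and 37.5% in the mutant (35.2%). The transcription factor *atfs-1* was called in 1 comparison, as lower in treated mutants than in treated wild type at 6 h (-0.55, adjusted p = 0.00078, or 0.228 with median centring). There *dve-1* was higher (0.38, lost without replicate 2 or 3). In treated mutants at 20 h *lonp-1* was higher (0.35, lost without replicate 2 or 3), and *haf-1* (-0.62) and *clpp-1* (lost without any 1 array) were lower. The called share in treated strains was 25% at 6 h (background 19.6%) and 37.5% at 20 h (37.3%). In untreated strains it was 0% (13.8% and 4.33%).

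Read against all genes, the members were called no more often than the background in any of the 12 tests except the difference between strains at 6 h, where 2 of 49 (4.08%) stood against 3.03%. In the test with the most calls, treated mutants against treated wild type at 20 h, 27.7% of the members were called against 37.3% of all genes.

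**Figure D5:**
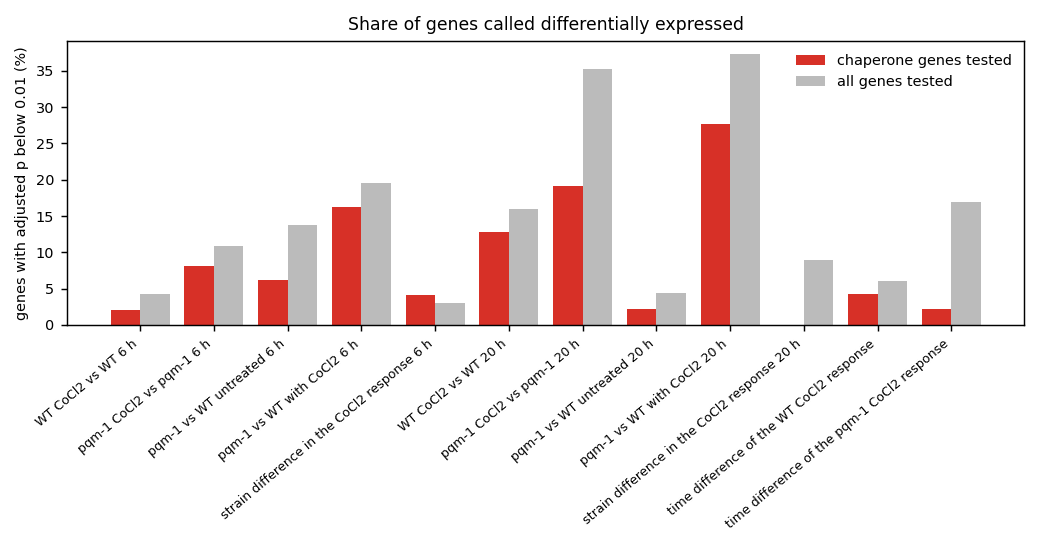
Percent of members (red) and of all genes tested (grey) with an adjusted p below 0.01 in the 8 comparisons, the difference between strains at 6 h and 20 h, and the difference between times in each strain. The red bar is above the grey bar only for the strain difference at 6 h (4.08% against 3.03%).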

How the data were processed

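The deposited files held scanner output of 24 Agilent 2-colour arrays (7 slides). Per the file headers, Feature Extraction 12.0.2.2 wrote for each spot the red and green intensities used here (foreground and background medians, where the plan had named means) and a log10 ratio of the processed signals. The authors also deposited a table of log2 ratios, whose direction per array equals that of the strain and treatment fields on 24 arrays. The source names give opposite dyes on 11 arrays, and on replicate 2 of the mutant response at 6 h the Cy3 source name gives another RNA than the fields.

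Intensities were corrected by normexp (offset 50), normalized by loess within arrays and averaged over the probes of a gene. Of 43603 probes, 34515 were matched to a gene through RefSeq symbols, locus tags and accessions. A probe was kept if all 3 arrays of some comparison of that time had it above background in either colour, and a gene needed a value on at least 2 arrays of each of the 4 comparisons of a time, a rule added after the data were examined. limma 3.58.1 (R 4.3.3) was fitted to the 12 arrays of a time (8 residual degrees of freedom), or to 24 for time differences, with Benjamini-Hochberg adjustment over 22067 genes at 6 h, 23058 at 20 h and 21821 at both. In data simulated with the spread of these arrays and independent errors, 100 genes each were changed by 0.5 and by 1 (log2). For the wild-type response 61% and 93% of them were recovered at 6 h, and 53% and 87% at 20 h. More genes were called on the real arrays, which moves the cutoff set by the adjustment, so these shares do not measure the power of the tests. The study's methods name 1-class SAM, which was run as an alternative, as were other corrections, filters, dye and slide terms and left-out arrays. The criterion for pairing arrays by replicate number, that every same-numbered pair correlate, was not met, so no pairing was fitted in the main tests. At 6 h, however, 11 of 12 such pairs that share a condition had r over 0.1, and pairing there is not excluded. Per-array columns of other series numbered 0.

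Named were the general chaperones on each array, every called member, and the highest and lowest member of a comparison. Other genes came from lists of cofactors, prefoldin, heat shock regulators, mitochondrial quality control and marker genes. The members and lists were chosen with earlier results of these data known. The number of arrays limits the precision.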

Additional observations from a re-analysis of the deposited data

Results flagged for a closer look

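Responses to CoCl2 that differed between strains or times by a test of the difference itself are the following. At 6 h the strain ratio with CoCl2 minus the untreated strain ratio was 0.834 (log2, SE 0.16, adjusted p = 0.00857 from limma) for *hsp-12.6* and -0.3806 (SE 0.075, adjusted p = 0.00996) for *hsp-60*. The mutant response minus that of wild type was 0.71 (adjusted p = 0.0308 from limma) for *hsp-12.6* and -0.38 (adjusted p = 0.0146) for *hsp-60*, neither called. The treated mutant arrays stood above treated wild type in 3 of 3 cases for *hsp-12.6* and below in 3 of 3 for *hsp-60*. The wild-type CoCl2 ratio was higher at 20 h than at 6 h by 0.6534 (SE 0.14, adjusted p = 0.00343) for *hsp-12.2* and by 0.8367 (SE 0.21, adjusted p = 0.00998) for *hsp-12.3*, and the mutant ratio by 0.738 (SE 0.14, adjusted p = 0.000424) for *hsp-12.2*. For *hsp-12.2* the 3 arrays at 20 h were above the 3 arrays at 6 h in each strain, and for *hsp-12.3* in wild type likewise. Apart from the difference of *hsp-12.2* in the mutant, each of these calls was lost in some of the fits that left out 1 array.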

How the results depend on the processing

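The counts of called members were 1, 4, 3 and 8 at 6 h (wild-type response, mutant response, untreated strain comparison, strain comparison with CoCl2) and 6, 9, 1 and 13 at 20 h, with 2 and 0 for the difference between strains at 6 h and 20 h and 2 and 1 for the difference between times in wild type and mutant. A threshold of 0.05 gave 2 and 5 for the wild-type response and untreated strain comparison at 6 h, 12, 17 and 3 for the first 3 at 20 h, 2 for the strain difference at 20 h and 3 for the mutant time difference. With the slide as a fixed block the counts were 2, 10, 6 and 15 at 6 h, 3 for wild type at 20 h, 4 for the strain difference at 6 h and 4 and 3 for the time differences. With the slide as a random block they were 2, 9, 6 and 14 at 6 h, 15 and 2 for the mutant response and untreated comparison at 20 h, 1 for the strain difference at 20 h and 2 for the mutant time difference. With a dye term they were 2, 7 and 7 for the first 3 comparisons at 6 h, 4 and 1 for the strain differences, 2 for the untreated comparison at 20 h and 3 for the mutant time difference. One-class SAM at a false discovery rate of 0.01 gave 2, 1 and 3 for the last 3 comparisons at 6 h and 2, 3 and 20 for the wild-type response and both strain comparisons at 20 h. Median centring gave 1, 0 and 1 for the last 3 at 6 h, 3, 0 and 4 for wild type and both strain comparisons at 20 h, and 0 for the strain difference at 6 h and both time differences. Fitting only the arrays compared gave 1, 1 and 4 for the last 3 at 6 h, 1, 4 and 4 for the first 3 at 20 h, 1 for the strain difference at 6 h and 0 for the wild-type time difference. Same-numbered arrays that share a condition deviated together, with the sign turned where it lies on opposite sides of the ratios, with r over 0.1 in 11 of 12 pairs at 6 h (-0.039 to 0.43) and 5 of 12 at 20 h (-0.40 to 0.34), and an array correlated best with its own number in 22 and 8 of 24 cases. This is a hint of pairing at 6 h from the data, not the design, and as not every pair passed, the arrays were taken to share only a number. The replicate block gave 2, 1 and 2 for the last 3 at 6 h, 2, 0 and 6 for wild type and both strain comparisons at 20 h, 0 for the strain difference at 6 h and 1 for the wild-type time difference, and under it the strain difference at 6 h had adjusted p = 0.0226 for *hsp-12.6* (0.83) and 0.0304 for *hsp-60* (-0.38). No offset gave 5 for the treated strain comparison and 0 for the strain difference at 6 h, and 3 and 6 for wild type and treated strains at 20 h. The scanner's log ratio and the authors' table each gave 4 and 1 for the same pair at 6 h and 3 and 15 for wild type and mutant at 20 h. Both channels above background gave 2 for wild type and 1 for the strain difference at 6 h and 2 for untreated strains at 20 h, and the brightest probe 2, 0 and, for the mutant time difference, 2. With no filter on dim probes, no minimum number of arrays, or saturated spots left out (the last 2 chosen after seeing the data), the strain difference at 6 h had 1 call, the first also giving 1 at 20 h and the first 2 giving 1 for the wild-type time difference. The other pair of comparisons gave 0 and 2 for the strain differences at 6 h and 20 h and the interaction model 5 at 20 h. Leaving out 1 array gave 1 to 2, 2 to 3, 1 to 3 and 3 to 5 at 6 h, 2 to 5, 5 to 12, 0 to 1 and 6 to 8 at 20 h, 0 to 1 for each strain difference, and 0 to 1 and 1 to 2 for the time differences.

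The dyes of the source names called 0 members in every comparison, and reversed for *hsp-12.6*, *hsp-17*, *hsp-60* and *dve-1* the mutant response at 6 h (-0.48, -0.66, 0.15 and -0.32) and for *hsp-12.6* and *hsp-60* the strain difference (-0.089 and 0.035). In treated strains at 6 h they reversed *dnj-28* (0.25), *dnj-5* (0.10), *hsp-12.6* (-0.22), *hsp-17* (-0.21), *hsp-25* (-0.11), *hsp-43* (-0.0064), *hsp-60* (0.028), *atfs-1* (0.21), *dve-1* (-0.13) and *unc-23* (-0.058). At 20 h they reversed *dnj-26* in wild type (0.032), *pfd-4* in the mutant (0.058) and, in treated strains, *cct-3* (0.13), *cct-4* (-0.11), *dnj-11* (0.23), *dnj-16* (-0.044), *dnj-19* (0.21), *dnj-23* (0.10), *dnj-26* (0.14), *dnj-4* (0.019), *dnj-9* (0.12), *hsp-12.2* (-0.14), *hsp-12.6* (-0.13), *hsp-25* (-0.12), *hsp-60* (0.16), *ahsa-1* (-0.14), *clpp-1* (0.038), *ddl-1* (0.098), *ddl-2* (0.12), *haf-1* (0.15), *lonp-1* (-0.073), *sti-1* (0.17) and *unc-23* (-0.14), and the wild-type time difference of *hsp-12.2* (-0.0014). In treated strains at 20 h median centring reversed *dnj-4* (0.080) and *hsp-60* (0.053), and the brightest probe *dnj-19* (0.12). Following the source names turns the sign of the 11 arrays on which they oppose the fields, so the reversals under that setting are built into it. The cause of those under median centring and the brightest probe was not tested. Of the values of single genes under alternatives other than left-out arrays, 1237 kept their side of the threshold, 333 lost their call, 27 gained one and 43 reversed. A change of sign was counted as reversed only where the value was called in the main fit or in the alternative. The 1237 therefore hold uncalled values that changed sign, such as *hsp-12.3* in the strain difference at 20 h (0.64, or -0.048 with the dyes of the source names). The share of higher calls among all genes moved by over 10 points with median centring (from 72.3% to 89.8% in treated strains at 6 h and from 56.5% to 31.6% in wild type at 20 h, for example) and with the scanner's log ratio (from 64.7% to 47.8% in the mutant at 20 h), with which the median of all genes there was -0.173, against -0.0089. The *hsp-17* response to CoCl2 was called in both strains at both times under each alternative fitted per gene with limma except the dyes of the source names (SAM was read only as counts).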
